A study of Mus musculus with 12 samples.

Results

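The levels of 10 RNA-binding splicing regulators were followed through rod photoreceptors and whole retina of mice with and without Abca4. The genes were Ptbp1, Ptbp2, Ptbp3, Hnrnpa1, Hnrnpa2b1, Srsf3, Msi1, Msi2, Srrm3 and Srrm4, picked by gene name because their proteins set the choice between the PKM1 and PKM2 forms of pyruvate kinase or the splicing of photoreceptor exons. All 10 had 1 entry each among the 56748 entries of the scaled count table and the 55372 entries of the TPM table (TPM is a level per transcript length), and all 10 passed the filter on low values in every comparison. The 12 libraries held RNA of retinas from mice aged 2 months, 3 in each of 4 groups. The controls were littermates of the genotype RiboTag with i75-Rod-Cre, and the knockouts carried Abca4-/- besides. In RiboTag mice Cre switches on an epitope tag on a ribosomal protein, here through a Cre named for rods, so that messages on rod ribosomes can be pulled down (rod TRAP, translating ribosome affinity purification). The other fraction was the lysate of the same kind of tissue before the pull-down (retina). All mice carried the tag and the Cre and were perfused with cycloheximide, which stalls ribosomes, so the controls were not unmodified animals. Nothing in the sources used here says whether each library came from 1 animal, and p-values measure only the spread between these libraries.

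The Pkm gene gives 2 proteins because its transcript takes 1 of 2 mutually exclusive exons. PTBP1, hnRNPA1 and hnRNPA2B1 bind around the PKM1 exon and repress it, which leaves PKM2, while SRSF3 favours the PKM2 exon. PTBP2 is the neuronal relative of PTBP1, whose own message PTBP1 holds down in non-neuronal cells, and PTBP3 is a further relative. Musashi proteins (MSI1 and MSI2) bind short UAG motifs and promote photoreceptor exons, and SRRM3 and SRRM4 promote neuronal microexons, those of photoreceptors included.

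Both alternative exons are shown because they are what the PTB, hnRNP A and SRSF3 proteins act on. In the GENCODE M21 annotation (build GRCm38, plus strand) the PKM1 exon lies at chr9:59675029-59675195 and the PKM2 exon at chr9:59675568-59675734. Each is coding, each is exon 9 of its own transcript, and each is 167 bases long. Capitals mark the letters TCTT, a core PTB motif, and TAG, the Musashi core, on the sense strand. TAGG, a core hnRNP A1 motif that contains TAG, was searched for as well.
PKM1 exon: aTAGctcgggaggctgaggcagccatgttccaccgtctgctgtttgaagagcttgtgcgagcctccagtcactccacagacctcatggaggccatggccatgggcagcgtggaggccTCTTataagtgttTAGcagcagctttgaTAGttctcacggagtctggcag
PKM2 exon: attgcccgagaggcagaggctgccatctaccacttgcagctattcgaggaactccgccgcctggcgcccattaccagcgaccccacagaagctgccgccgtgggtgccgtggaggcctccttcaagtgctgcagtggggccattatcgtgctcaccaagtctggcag
The exons were identical at 103 of 167 positions (61.7%). The PKM1 exon held TAG 3 times and TCTT 1 time, and the PKM2 exon held neither. TAGG was in neither exon. Among 716 internal coding-transcript exons of this length, 55.3% held TAG, 6.84% held TAG at least 3 times, 47.3% held TCTT and 10.5% held TAGG. A match of letters describes these exons only, and the introns around them were not analysed here. The tables hold 1 value per gene, so exon choice itself was not measured here. The authors report separate TPM of PKM1 and PKM2 for rods and retina of control and Abca4-/- mice. Those could not be recomputed from the values used here. Pkm as a whole was at 4683.1, 4601.1 and 4365.9 TPM in control rod TRAP and at 2978.1, 3073.7 and 3302.2 TPM in control retina, and its log2 fold change in rod TRAP was 0.90 (SE 0.12 and limma adjusted p 1.67e-05). With the scaling of the authors alone it was 0.25 (limma adjusted p 0.0283).

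The libraries were checked before any comparison. Abca4 was at 991.6, 876.7 and 889.7 TPM in control rod TRAP and at 2.9, 6.3 and 215.9 TPM in the Abca4-/- rod TRAP libraries. In retina it was at 520.0, 581.8 and 494.1 TPM in control and at 1.8, 5.9 and 129.4 TPM in Abca4-/-. Both libraries labelled Abca4-/- replicate 3 thus held 23.5% and 24.3% of the control mean, against at most 1.11% in the other Abca4-/- libraries. Counts of called regulators, and most values of the Abca4-/- comparisons that are described one by one, are given with and without them. The deposited totals were scaled to 17096515 to 17097707 within rod TRAP and 17860761 to 17862326 within retina, so they do not show sequencing depth. All 10 rod markers were higher in control rod TRAP than in control retina (summed 197743 to 214157 against 99663 to 108911 TPM). All 10 Müller glia markers, all 8 cone markers, all 8 amacrine markers and all 8 ganglion cell markers were lower, with Müller markers summing to 144 to 169 against 4092 to 6360 TPM. Of the other marker lists, 7 of 8 bipolar, 2 of 2 tested horizontal, 7 of 8 microglia, 5 of 6 vascular and 5 of 6 RPE markers were lower. Over all genes tested, 38.8% were called lower in this comparison. In the rod TRAP libraries of both genotypes, 9 Müller, 8 cone, 7 bipolar, 6 amacrine and 7 ganglion cell markers passed the filter on low values. Of the other lists, 0 horizontal, 1 microglia, 3 vascular and 3 RPE markers passed it there. Markers that passed through retina alone had a direction close to fixed by the filter. These are bulk samples, and a difference in the share of a cell type cannot be told apart from a difference in RNA per cell. Rod TRAP is RNA on ribosomes after a pull-down, while retina is RNA of the whole lysate. A difference between cell types therefore cannot be told apart from a difference between ribosome-bound and whole RNA.

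In control rod TRAP, Hnrnpa2b1 had the highest level of the regulators, at 739.6 ± 46.5 TPM (SD, n = 3), and Ptbp3 the lowest, at 5.43 ± 0.98 TPM. The order from high to low was Hnrnpa2b1, Msi1, Hnrnpa1, Srsf3, Msi2, Ptbp2, Ptbp1, Srrm3, Srrm4 and Ptbp3. Of these neighbours, Ptbp1 (22.1 to 27.7 TPM) and Srrm3 (20.3 to 22.4 TPM) overlapped between libraries, and the other neighbours did not. In control retina Msi1 led, and Ptbp1 stood above Ptbp2. There the library ranges of Hnrnpa2b1 and Hnrnpa1, of Ptbp1 and Msi2, of Srrm3 and Ptbp2, and of Ptbp2 and Srrm4 overlapped. The libraries varied more in retina, where the median coefficient of variation over the 10 genes was 18.9% in control and 20.3% in Abca4-/-, than in rod TRAP, where it was 6.11% and 9.62%. Within its group, control retina replicate 3 was the lowest for 9 of the 10 genes and replicate 2 the highest for all 10. Abca4-/- retina replicate 3 was the highest for 8 of the 10, and Abca4-/- rod TRAP replicate 1 the lowest for 8 of the 10.

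**Figure D1:**
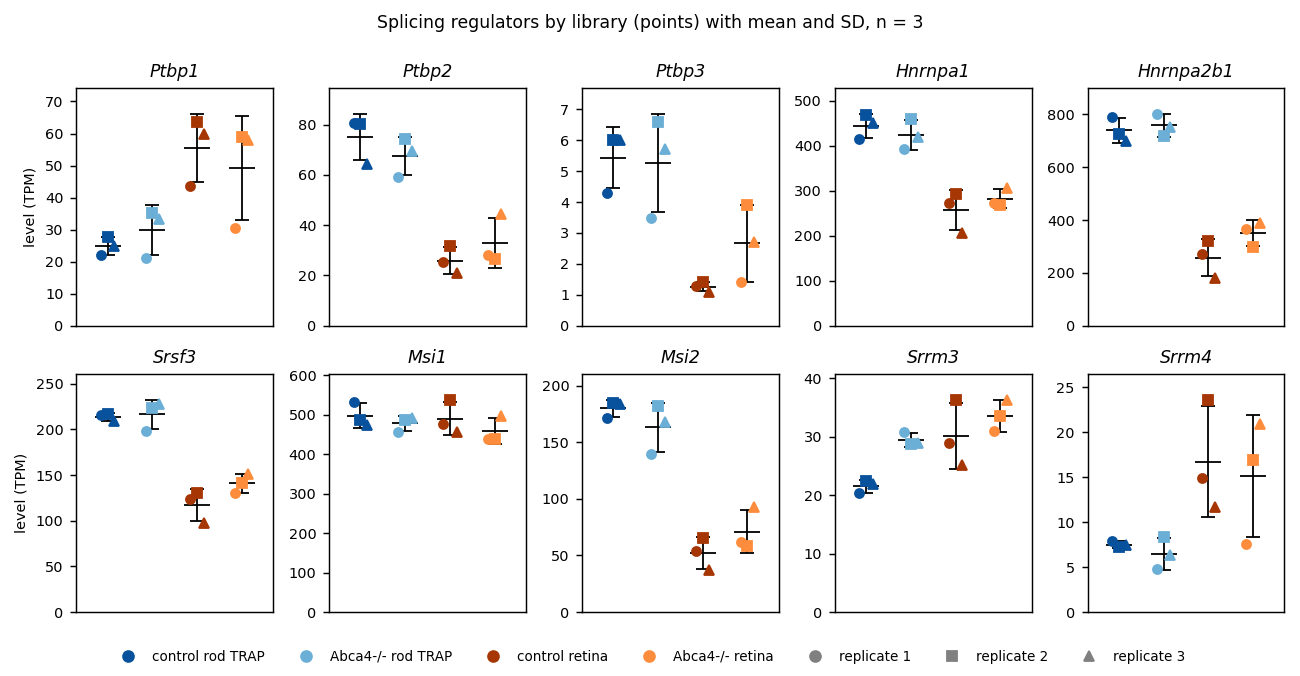
Level of each regulator in TPM (y axis, from 0) in the 12 libraries, with a color for each group, a symbol for each replicate and black bars for the mean and SD of 3 libraries. Ptbp2, Ptbp3, Hnrnpa1, Hnrnpa2b1, Srsf3 and Msi2 sit higher in control rod TRAP than in control retina, while Ptbp1, Srrm3 and Srrm4 sit lower and Msi1 overlaps.

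The first comparison was rod TRAP against retina in control mice, which asked how messages on rod ribosomes differ from those of the whole tissue. After rescaling the libraries to a common centre, 7 regulators were higher in rod TRAP (Ptbp2, Ptbp3, Hnrnpa1, Hnrnpa2b1, Srsf3, Msi2 and Msi1, the last of which turned lower with the scaling of the authors alone), Ptbp1 and Srrm4 were lower, and Srrm3 did not pass the test. The fractions differed widely: of all 16286 genes tested, 75.4% were called, 36.6% higher and 38.8% lower in rod TRAP, so 9 called of 10 stands beside that share. The median log2 fold change was 1.20 over the regulators and -0.03 over all genes. With the scaling of the authors alone, the median of all genes moved to -0.62, the calls over all genes went from 5968 higher and 6317 lower to 3415 higher and 9549 lower, and the regulators split into 6 higher and 4 lower. Fold changes are given relative to the common centre, on a scale of log2(CPM + 0.5), where CPM is a scaled count relative to its library total.

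The PTB family moved in both directions. Ptbp1, the general family member that represses neuronal exons and the PKM1 exon, was at 22.1, 27.7 and 24.8 TPM in control rod TRAP and at 43.5, 63.5 and 59.8 TPM in control retina. All 3 rod TRAP libraries were below all 3 retina libraries. Its log2 fold change was -0.73 (SE 0.15 and limma adjusted p 5.02e-04), and it stayed called in all 12 alternatives. Ptbp2, the neuronal member, was at 80.7, 80.2 and 64.4 TPM in control rod TRAP and at 25.2, 31.7 and 20.8 TPM in control retina. The rod TRAP libraries were all above the retina libraries, with a log2 fold change of 2.11 (SE 0.16 and limma adjusted p 1.18e-07). Ptbp3, the low-level member, was at 4.3, 6.0 and 6.0 TPM in control rod TRAP against 1.3, 1.4 and 1.1 TPM in control retina. These groups did not overlap, and the log2 fold change of 2.58 (SE 0.21 and limma adjusted p 1.62e-07) was the largest of the 10 on this scale. On log2(TPM + 1), Msi2, Hnrnpa2b1 and Ptbp2 exceeded Ptbp3.

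Set against each other within a library, Ptbp2 and Ptbp1 changed places between the fractions. The ratio of Ptbp2 to Ptbp1 TPM was 3.65, 2.90 and 2.60 in control rod TRAP and 0.58, 0.50 and 0.35 in control retina. In the Abca4-/- mice it was 2.81, 2.11 and 2.08 in rod TRAP and 0.93, 0.45 and 0.77 in retina. Ptbp2 was thus the more abundant of the pair in 6 of 6 rod TRAP libraries and the less abundant in 6 of 6 retina libraries. The ratio is a description of the values behind the fold changes above and was not tested.

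**Figure D2:**
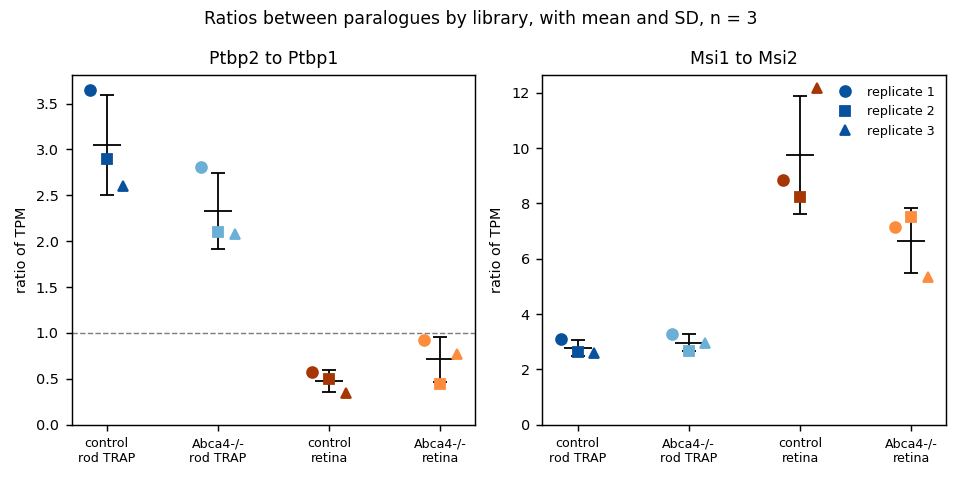
Ratio of TPM (y axis, from 0) of Ptbp2 to Ptbp1 (left, dashed line at 1) and of Msi1 to Msi2 (right) in each of the 12 libraries, with symbols for replicates and black bars for mean and SD of 3. Ptbp2 to Ptbp1 lies between 2.08 and 3.65 in rod TRAP and between 0.35 and 0.93 in retina.

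The hnRNP A genes, whose proteins act with PTBP1 on the PKM1 exon, were higher in rod TRAP. Hnrnpa1 was at 415.6, 468.0 and 451.1 TPM in control rod TRAP and at 272.5, 292.1 and 207.1 TPM in control retina. No libraries overlapped, and the log2 fold change was 1.21 (SE 0.12 and limma adjusted p 1.42e-06). Hnrnpa2b1 was at 791.1, 727.3 and 700.5 TPM in control rod TRAP against 270.4, 321.5 and 181.9 TPM in control retina, a log2 fold change of 1.88 (SE 0.15 and limma adjusted p 1.37e-07). The ratio of Hnrnpa2b1 to Hnrnpa1 TPM was 0.99 ± 0.11 in control retina against 1.67 ± 0.20 in control rod TRAP (SD, n = 3). For the knockouts the ratio was 1.34, 1.11 and 1.27 in retina against 2.05, 1.57 and 1.79 in rod TRAP. Srsf3, an SR protein gene and the regulator that favours the PKM2 exon, was at 215.9, 216.9 and 208.7 TPM in control rod TRAP and at 124.0, 130.1 and 97.0 TPM in control retina. It too did not overlap between the fractions and had a log2 fold change of 1.18 (SE 0.12 and limma adjusted p 1.10e-06). Related entries were listed for 2 of these genes: Srsf3-ps had 87 to 164 scaled counts, Hnrnpa1l2-ps2 7 to 22 and Hnrnpa1l2-ps 3 to 8 in a library. Reads shared with Srsf3 and Hnrnpa1 could have been split, by an amount that is not known. Copies listed under unrelated names were not searched for.

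Of the Musashi genes, Msi2 was higher in rod TRAP and Msi1 was not shown to differ under every scaling. Msi2 was at 171.4, 184.6 and 184.1 TPM in control rod TRAP and at 53.9, 65.5 and 37.5 TPM in control retina, with no overlap and a log2 fold change of 2.17 (SE 0.14 and limma adjusted p 1.68e-08). Msi1 was at 533.4, 487.5 and 474.6 TPM in control rod TRAP and at 476.8, 538.4 and 456.5 TPM in control retina, ranges that overlap. Its log2 fold change of 0.32 (SE 0.11 and limma adjusted p 0.0159) turned to -0.33 (limma adjusted p 0.00917) with the scaling of the authors alone, and was 0.03 (limma adjusted p 0.835) on log2(TPM + 1), so no direction is given for it. Msi1 exceeded Msi2 in all 12 libraries. The ratio of Msi1 to Msi2 TPM was 3.11, 2.64 and 2.58 in control rod TRAP and 8.85, 8.22 and 12.2 in control retina, and in Abca4-/- it was 3.28, 2.67 and 2.94 in rod TRAP and 7.15, 7.49 and 5.33 in retina.

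The SRRM genes, which drive microexons, were not higher in rod TRAP. Srrm4 was at 7.9, 7.2 and 7.4 TPM in control rod TRAP and at 14.9, 23.6 and 11.7 TPM in control retina, where it spread widely. The rod TRAP libraries were all below those of retina, with a log2 fold change of -0.66 (SE 0.15 and limma adjusted p 0.00162). Srrm3 was at 20.3, 22.4 and 21.9 TPM in control rod TRAP and at 28.9, 36.3 and 25.2 TPM in control retina. Its rod TRAP libraries were all below its retina libraries in TPM, but its log2 fold change of -0.16 (SE 0.12 and limma adjusted p 0.224) did not pass the test. It passed at -0.80 (limma adjusted p 6.31e-05) with the scaling of the authors alone, at -0.45 (limma adjusted p 0.0315) on log2(TPM + 1) and at -0.30 (limma adjusted p 0.00610) without control retina replicate 3. Srrm3 was the more abundant of the 2 genes per length in all 12 libraries, with a ratio of Srrm3 to Srrm4 TPM of 2.88 ± 0.28 in control rod TRAP and 1.88 ± 0.31 in control retina (SD, n = 3).

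**Figure D3:**
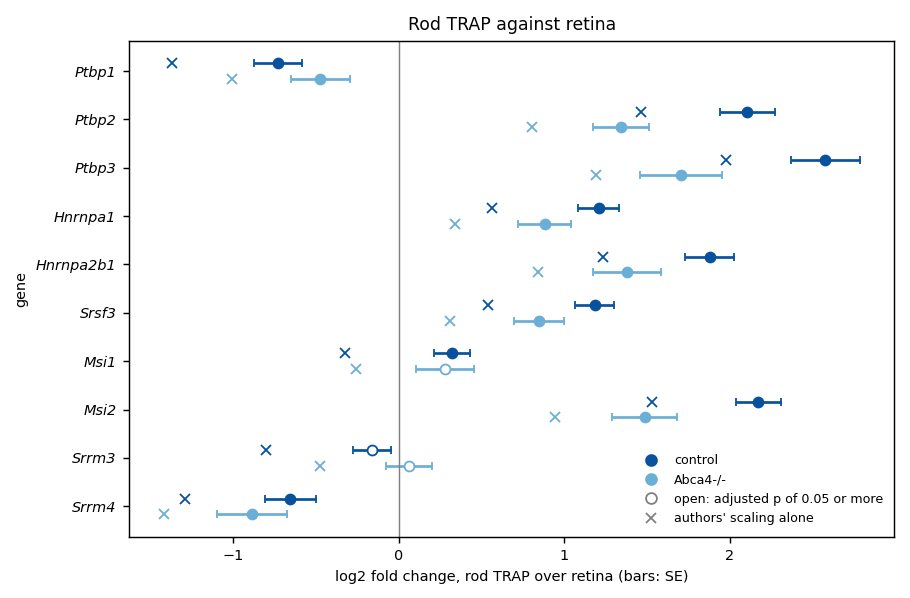
Log2 fold change of rod TRAP over retina (x axis) for each regulator in control and Abca4-/- mice, with SE bars, open circles where the limma adjusted p was 0.05 or more, and crosses for the values under the scaling of the authors alone. Msi1 lies on either side of 0 depending on the scaling, Ptbp1 and Srrm4 lie below 0 and the other called genes above.

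In Abca4-/- mice the same fractions were compared in the other 6 libraries. Ptbp2, Ptbp3, Hnrnpa1, Hnrnpa2b1, Srsf3 and Msi2 were again called higher in rod TRAP, and Ptbp1 and Srrm4 lower, which is 8 of 10. Of all 16036 genes tested, 64.1% were called, 30.4% higher and 33.7% lower in rod TRAP, and the median log2 fold change was 0.86 over the regulators and 0.00 over all genes. The log2 fold changes called higher ran from 0.85 for Srsf3 (SE 0.15 and limma adjusted p 6.00e-04) to 1.71 for Ptbp3 (SE 0.25 and limma adjusted p 1.26e-04). On log2(TPM + 1) Ptbp3 was at 0.80 and no longer passed (limma adjusted p 0.0732), beside 3.5, 6.6 and 5.7 TPM in Abca4-/- rod TRAP and 1.4, 3.9 and 2.7 TPM in Abca4-/- retina. Ptbp1 was at 21.1, 35.2 and 33.4 TPM in Abca4-/- rod TRAP and at 30.5, 59.0 and 58.0 TPM in Abca4-/- retina, lower in rod TRAP in 3 of 3 same-numbered pairs, although replicates 2 and 3 of rod TRAP lay above replicate 1 of retina. Its log2 fold change of -0.47 (SE 0.18 and limma adjusted p 0.0365) stayed past the threshold in 6 of 13 alternatives (limma adjusted p from 0.00331, with the replicate number as a block, to 0.142), and was -0.51 (limma adjusted p 0.122) without both libraries of replicate 3. Srrm4 was at 4.8, 8.3 and 6.3 TPM in Abca4-/- rod TRAP and 7.6, 16.9 and 20.9 TPM in Abca4-/- retina, lower in 3 of 3 same-numbered pairs though the groups overlap, with a log2 fold change of -0.89 (SE 0.21 and limma adjusted p 0.00332). The pairing of the replicate 2 libraries, counted here for Ptbp1 and Srrm4, was not shown. Msi1 (0.28, SE 0.18 and limma adjusted p 0.186) and Srrm3 (0.06, SE 0.14 and limma adjusted p 0.726) did not pass the test, and both fell below 0 with the scaling of the authors alone. Without both libraries of replicate 3, 6 regulators were called higher and 1 lower.

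The second question was whether loss of Abca4 changed the regulators in rods. In rod TRAP, Abca4-/- against control, limma called 0 of the 10 regulators. Of all 13104 genes tested, 148 (1.13%) were called, a count that was 36, 30 and 33 without control replicates 1, 2 and 3 and 594 without Abca4-/- replicate 1. At an unadjusted p under 0.05 there was 1 regulator, Srrm3, and no other tool was run. Srrm3 was at 30.8, 28.7 and 28.9 TPM in Abca4-/- rod TRAP and at 20.3, 22.4 and 21.9 TPM in control rod TRAP. In TPM all 3 Abca4-/- libraries were above the 3 controls, but the log2 fold change of 0.25 (SE 0.09 and limma adjusted p 0.347) did not pass over all genes. On the CPM scale, 2 of the 10 regulators had groups that did not overlap, beside 17.6% of all genes tested. Srrm3 was at 0.29 (limma adjusted p 0.351) without the Abca4-/- replicate 3 library, and its limma adjusted p ran from 0.220 to 0.890 over 12 alternatives. Ptbp1 was 0.22 higher on the log2 scale (SE 0.13 and limma adjusted p 0.603), with a 95% interval of -0.06 to 0.50. Ptbp2 differed by -0.06 (interval -0.27 to 0.15), and Hnrnpa1 by -0.03 (interval -0.21 to 0.15). Of the 10 intervals, that of Ptbp1 reached farthest from 0, to 1.41-fold. Without the Abca4-/- replicate 3 library, Ptbp1 was at 0.18, Ptbp2 at -0.11 and Hnrnpa1 at 0.02. These intervals bound the differences, and they do not show that the genotypes were alike.

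In retina, Abca4-/- against control, again 0 of 10 regulators were called by limma, and 18 of 16964 genes (0.106%) were called in all. Ptbp2 and Ptbp3 had an unadjusted p under 0.05. Ptbp2 was at 28.3, 26.4 and 44.4 TPM in Abca4-/- retina and at 25.2, 31.7 and 20.8 TPM in control retina, which overlap. Its log2 fold change was 0.59 (SE 0.22 and limma adjusted p 0.400), and 0.39 (limma adjusted p 0.937) without control retina replicate 3, the library lowest for 9 of the 10 genes in TPM, with a range of limma adjusted p of 0.114 to 0.937 over the alternatives. Ptbp3 was at 1.4, 3.9 and 2.7 TPM in Abca4-/- retina and at 1.3, 1.4 and 1.1 TPM in control retina, with a log2 fold change of 0.76 (SE 0.29 and limma adjusted p 0.400). It was 0.55 (limma adjusted p 0.652) without the Abca4-/- replicate 3 library. Hnrnpa2b1 (0.49, SE 0.23), Msi2 (0.46, SE 0.22) and Srsf3 (0.30, SE 0.17) had limma adjusted p of 0.418, 0.418 and 0.460. On the CPM scale, Ptbp2 and Srsf3 were higher in all Abca4-/- libraries than in all controls, beside 19.9% of all genes tested that did not overlap. Without the Abca4-/- replicate 3 library, Ptbp2 was at 0.47 (limma adjusted p 0.648) and Msi2 at 0.34 (limma adjusted p 0.673). The 95% intervals reached up to 2.66-fold for Ptbp3 and 2.11-fold for Ptbp2, so the retina libraries bound the differences less tightly than the rod TRAP libraries did.

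**Figure D4:**
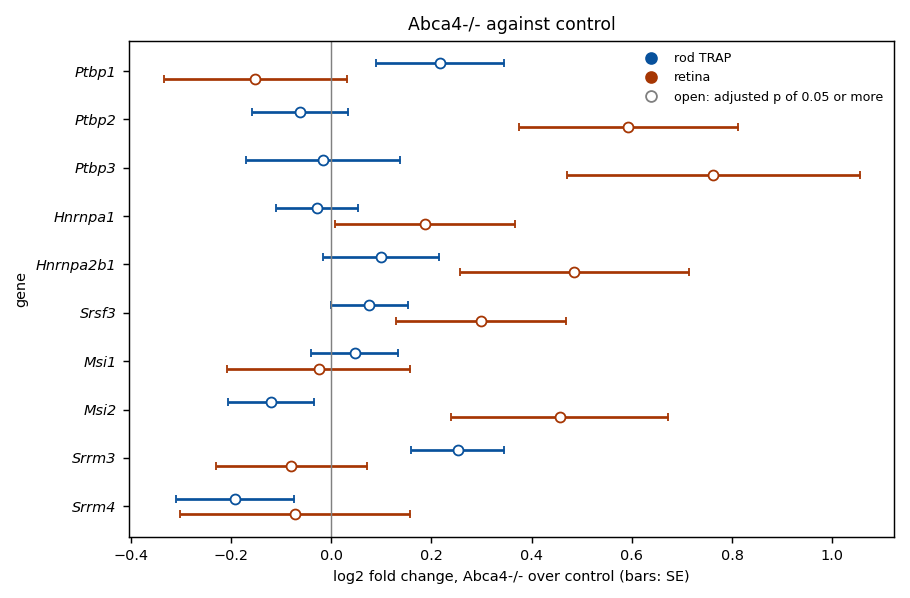
Log2 fold change of Abca4-/- over control (x axis) for each regulator in rod TRAP and in retina, with SE bars. All 20 circles are open, since no limma adjusted p was below 0.05, and the SE was 0.08 to 0.15 for rod TRAP but 0.15 to 0.29 for retina.

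The difference between those 2 genotype effects, tested as an interaction over all 12 libraries, was called for 0 of 10 regulators by limma. Over 17273 genes, 1 (0.00579%) was called. Ptbp2, Ptbp3 and Msi2 had an unadjusted p under 0.05, with interaction terms of -0.68 (SE 0.25 and limma adjusted p 0.407), -0.79 (SE 0.35 and limma adjusted p 0.422) and -0.60 (SE 0.25 and limma adjusted p 0.415). Without both libraries of Abca4-/- replicate 3 they were -0.63, -0.61 and -0.52. A negative value here means a smaller excess of rod TRAP over retina in Abca4-/- than in control. The median term was -0.25 over the 10 regulators beside 0.01 over all genes. This was not particular to the regulators among the lists of other splicing genes described below. The median was -0.312 for hnRNP and PTB partners, -0.267 for SR proteins and kinases and -0.372 for neuronal and tissue-specific factors. It was -0.355 for genes with photoreceptor or retina exons and 0.02 for retinitis pigmentosa splicing factors.

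Other splicing genes were read from 5 lists, to place the 10 regulators among related factors in control rod TRAP against control retina. The counts stand beside 36.6% of all genes called higher and 38.8% called lower in this comparison, and beside a median of -0.03 over all genes. With the scaling of the authors alone the median over all genes was -0.62. Counts and medians of the 5 lists were not recomputed with that scaling, so they hold for the common centre only. Of 30 tested hnRNP and PTB partner genes, 24 rose, 3 fell and 3 did not pass, with a median log2 fold change of 1.40. Matr3, which encodes the PTBP1 partner Matrin 3, was at 312.2, 347.6 and 319.3 TPM in rod TRAP against 34.5, 39.5 and 22.3 TPM in retina (log2 fold change 3.60, SE 0.14 and limma adjusted p 3.89e-10), and Syncrip, an hnRNP gene also called hnRNP Q, rose by 2.79 (SE 0.19). Raver2, another PTB partner, was at 0.3 to 0.6 TPM in rod TRAP against 6.8 to 10.9 TPM in retina (log2 fold change -3.34, SE 0.22), and Pcbp2, a poly(C)-binding protein, was at -0.73 (SE 0.14). Of 21 SR protein and kinase genes, 16 rose, 3 fell and 2 did not pass (median 0.95), so 19 were called where 75.4% of all genes were. Among them were Srsf10 at 2.49 (SE 0.18) and the SR kinase gene Clk1 at 2.34 (SE 0.18), and below 0 Srsf12 at -2.36 (SE 0.23) and Srsf9 at -0.36 (SE 0.14). Srsf12 had 7, 4 and 7 scaled counts in control rod TRAP against 98, 132 and 68 in control retina. Srpk3, of the same list, had 3, 8 and 7 scaled counts in control rod TRAP against 13, 19 and 31 in control retina. Srsf12 and Srpk3 passed the filter on low values through retina alone, so the direction of each was close to fixed by the filter. Srsf9 lost its call in 4 alternatives.

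The neuronal and tissue-specific factors were the list with most genes lower in rod TRAP. Of 25 tested, 9 rose, 15 fell and 1 did not pass, with a median of -1.46 beside -0.03 over all genes. Rbfox2, a factor of neuronal and muscle exons, was at 1.0, 0.5 and 0.5 TPM in control rod TRAP and at 30.3, 48.1 and 25.7 TPM in control retina (log2 fold change -4.85, SE 0.16 and limma adjusted p 2.14e-10). Nova2, a neuronal factor, was at 0.1 TPM or less in control rod TRAP and at 4.0 to 6.1 TPM in control retina (log2 fold change -4.75, SE 0.21). In control rod TRAP, Nova2 had 3, 4 and 8 scaled counts and Rbfox3, of the same list, had 8, 8 and 3. Both passed the filter on low values through retina alone, so their direction was close to fixed by the filter. In the rod TRAP libraries of both genotypes, 19 genes of this list passed that filter, beside the 25 tested here. The count of 15 lower and the median of -1.46 therefore rest in part on genes that passed through retina. The muscleblind genes went the other way, with Mbnl2 at 177.2 to 187.7 TPM in rod TRAP against 16.1 to 27.7 TPM in retina (log2 fold change 3.27, SE 0.15) and Mbnl1 at 2.34 (SE 0.16). Markers of inner retinal cell types fell in the same comparison, with medians of -3.87 for the 8 amacrine and -4.40 for the 8 ganglion cell markers, and their part in these values was not tested. Of these markers, 6 amacrine and 7 ganglion cell markers passed the filter in the rod TRAP libraries of both genotypes.

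Of the 9 splicing factor genes in which mutations cause retinitis pigmentosa, a disease of rods, 8 rose and 1 fell (median 0.83), beside 36.6% higher and 38.8% lower among all genes. Cwc27 was at 2.20 (SE 0.18), Prpf3 at 1.30 (SE 0.16) and Rp9 at -0.71 (SE 0.15). Of 11 genes known for exons used in photoreceptors or retina, 10 rose and 1 did not pass (median 1.87), beside the same 36.6% higher among all genes and their median of -0.03. Cep290, a gene of the connecting cilium, was at 33.9, 30.3 and 24.9 TPM in control rod TRAP and at 2.3, 1.7 and 0.8 TPM in control retina (log2 fold change 4.51, SE 0.22 and limma adjusted p 1.67e-09), and Rpgr, another cilium gene, was at 2.73 (SE 0.25). The values are for whole genes, and inclusion of their exons was not measured.

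**Figure D5:**
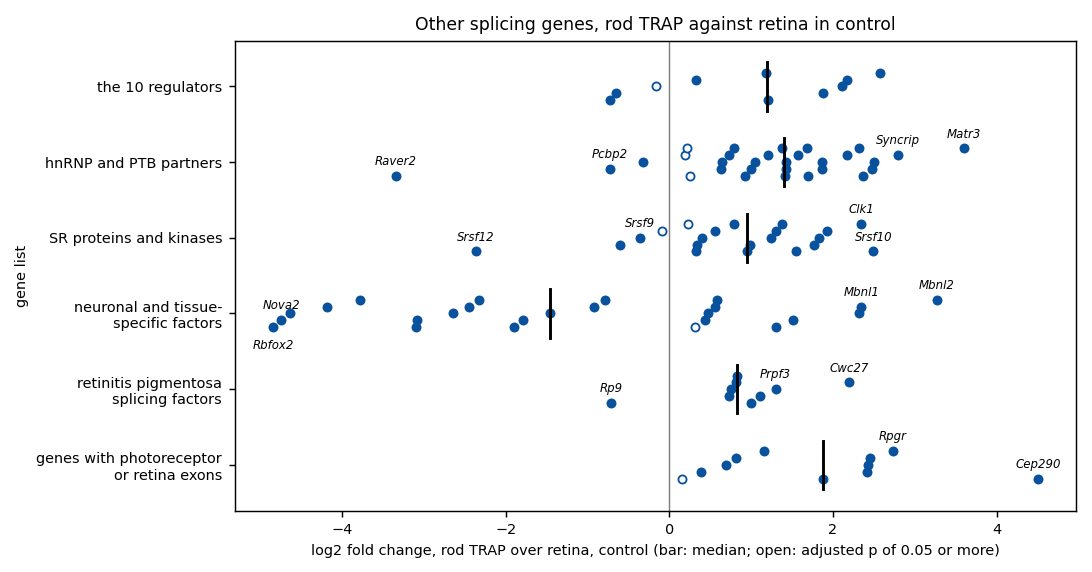
Log2 fold change of control rod TRAP over control retina (x axis) for the 10 regulators and for 5 lists of other splicing genes, 1 circle per gene, open where the limma adjusted p was 0.05 or more, with the median as a black bar. The medians run from -1.46 for the neuronal and tissue-specific factors to 1.87 for genes with photoreceptor or retina exons.

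Among the listed genes, Tra2a was called between genotypes in rod TRAP and none was called in retina or in the interaction. Tra2a encodes a splicing activator related to the SR proteins. It was at 109.1, 116.3 and 129.6 TPM in Abca4-/- rod TRAP and at 90.4, 82.3 and 80.0 TPM in control rod TRAP, with no overlap. Its log2 fold change was 0.52 (SE 0.09 and limma adjusted p 0.0177), and 0.50 (limma adjusted p 0.0473) without the Abca4-/- replicate 3 library. The call was lost when any 1 control rod TRAP library was left out, while the log2 fold change stayed at 0.57, 0.49 and 0.50 without replicates 1, 2 and 3 (limma adjusted p 0.0767, 0.159 and 0.131). It was also lost on log2(TPM + 1) at 0.48 (limma adjusted p 0.081) and with all 12 libraries in 1 fit at 0.49 (limma adjusted p 0.518). In retina Tra2a was at 60.7, 52.7 and 64.2 TPM in Abca4-/- and at 41.0, 43.0 and 24.8 TPM in control (log2 fold change 0.76, SE 0.22 and limma adjusted p 0.400), and at 0.82 on the log2 scale without the Abca4-/- replicate 3 library. Cone marker genes had a median log2 fold change of 0.42 in Abca4-/- rod TRAP, where their summed level was 564 to 698 TPM against 453 to 475 TPM in control, with 1 of 8 called (Gngt2), and their part in the Tra2a difference was not tested.

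The gene whose profile was most like each regulator, by Pearson's r of log2(CPM + 0.5) over the 12 libraries and among 11224 genes, was Lrfn3 for Ptbp1 (r 0.971), Mbd5 for Ptbp2 (0.999), Sec24a for Ptbp3 (0.995), Fbxl5 for Hnrnpa1 (0.999), Hspd1 for Hnrnpa2b1 (0.997), Esco1 for Srsf3 (0.998), Syf2 for Msi1 (0.978), Fam169a for Msi2 (0.999), Borcs8 for Srrm3 (0.852) and Mgat5 for Srrm4 (0.986). The 12 points fall into 2 fractions that differ for most genes, so these values chiefly describe likeness between fractions. Srrm3 had the lowest best match of the 10.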

How the data were processed

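RNA of 12 libraries was sequenced by the authors after low-input cDNA synthesis (SMARTer, from 5 ng of lysate or 10 ng of TRAP RNA). The submitters' processing notes name CASAVA 1.8.2, HISAT2, DESeq2, edgeR and the build GRCm39, with no role given. The authors deposited a score, here called scaled count, which is read counts multiplied by 1 factor per library to a common total within a fraction and rounded, and a table of TPM. Scaled counts are not raw counts, so limma 3.58.1 (trend, robust, R 4.3.3) was used on log2(CPM + 0.5) after TMM rescaling (trims 0.3 and 0.05). Genes needed 10 scaled counts in 3 libraries, and calls needed a two-sided Benjamini-Hochberg adjusted p under 0.05 over all genes tested. Fold changes understate low genes. Each comparison used its own 6 libraries and the interaction all 12. Same-numbered rod TRAP and retina libraries deviated together (r 0.169 to 0.461 over 15765 genes), so the numbers were read as pairing the fractions. The exception was Abca4-/- rod TRAP replicate 2 (r 0.222), which was closer to a retina library of another number, so its pairing was not shown. The reported fits did not include the pairing, so their SE and limma p-values treat the libraries as independent. The replicate number as a block was run as an alternative. All regulators were named. Of each list, the 2 largest rises and 2 largest falls called in control with at least 5 TPM in the higher fraction were named, besides list genes called between genotypes. The regulators and lists were chosen with earlier results of these data known. Exon sequences came from GENCODE M21 transcripts.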

Additional observations from a re-analysis of the deposited data

How the results depend on the processing

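Of 1002 recomputed log2 fold changes of the regulators, Pkm, Tra2a and the named list genes, 953 kept their direction and their side of the threshold, 23 kept direction but lost the call, 4 gained a call and 22 turned direction. Of those that turned, 1 had been called, Msi1 in control rod TRAP against retina, at -0.33 with the scaling of the authors alone. With that scaling Msi1 was also at -0.26 and Srrm3 at -0.47 in Abca4-/- rod TRAP against retina. On log2(TPM + 1), Srrm3 was at -0.18 in that comparison and at 0.16 between genotypes in retina, and Msi1 was at -0.057 between genotypes in rod TRAP. The cause was not tested. With 1 library left out, values near 0 turned: between genotypes in rod TRAP the ranges were -0.083 to 0.020 for Hnrnpa1, -0.04 to 0.18 for Hnrnpa2b1, -0.017 to 0.090 for Msi1, -0.110 to 0.024 for Ptbp2 and -0.14 to 0.11 for Ptbp3. In retina they were -0.163 to 0.054 for Msi1 and -0.21 to 0.17 for Srrm4. For Srrm3 in Abca4-/- rod TRAP against retina the range was -0.008 to 0.084. The interaction ranged from -0.046 to 0.158 for Msi1, which was at -0.04 without both libraries of Abca4-/- replicate 3, and from -0.016 to 0.289 for Pkm. Pkm between genotypes in rod TRAP was at -0.18 (limma adjusted p 0.730) and passed at -0.37 (limma adjusted p 3.08e-04) without Abca4-/- replicate 1. The count of regulators called was 8 to 10 in control and 6 to 9 in Abca4-/- rod TRAP against retina, and 0 between genotypes and in the interaction, in all alternatives run. Leaving out 1 library gave 8 to 10 and 7 to 8. The replicate block changed no call of a regulator. Between genotypes the same number did not pair libraries (r -0.417 to 0.031). Over all genes, calls between genotypes numbered 30 (without control replicate 2) to 594 (without Abca4-/- replicate 1) for rod TRAP, beside 148, and 1 (without control replicate 3 or without Abca4-/- replicate 1) to 62 (all 12 libraries in 1 fit) for retina, beside 18. The scaled totals hide depth, so counting error per library is unknown.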
